A study of Mus musculus with 8 samples.

Results

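Genes of the S100, galectin and annexin families, together with the vimentin gene, were examined in naïve CD4 T cells and in effector Th1, Th2 and Th17 cells. The set holds *S100a4*, *S100a6*, *S100a10*, *S100a11*, *S100a13*, *Lgals1*, *Lgals3*, *Anxa1*, *Anxa2* and *Vim*. They were chosen by gene symbol, with earlier results of these data known. All 10 were found among the 23284 gene symbols of the expression tables, each as a single row. All cells carried the DO11.10 transgenic TCR, which recognizes an OVA peptide, and each group had 2 RNA-seq libraries, 8 in all. The naïve cells were splenic CD4 T cells sorted as CD44 low and CD62L high, with no culture. The effector cells were derived *in vitro* from such naïve cells in 6 days of culture with OVA peptide and irradiated splenocytes from which T cells had been removed. Th1 cultures held IL-2 (30 U/ml), IL-12 (100 U/ml) and anti-IL-4 Ab (1 μg/ml). Th2 cultures held IL-2 (30 U/ml), IL-4 (100 U/ml) and anti-IFNγ Ab (10 μg/ml). Th17 cultures held IL-6, IL-1β and IL-23, at 10 ng/ml each, with anti-IL-4 and anti-IFNγ Abs at 10 μg/ml each. The naïve and effector groups therefore differ in stimulation, culture and the presence of feeder cells at the same time, and these cannot be told apart.

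S100 proteins are small proteins that form dimers, and most of them bind calcium and bind other proteins when it rises. Annexins bind phospholipid membranes in the presence of calcium, and S100A10 joins annexin A2 molecules into a complex at the plasma membrane. Galectins are lectins that bind β-galactosides on glycoproteins, and vimentin forms the main intermediate filaments of lymphocytes. Several of these genes are known to be more strongly expressed in activated and memory T cells than in naïve T cells.

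The 5 S100 genes of the set lie on mouse chromosome 3 (mm10). *S100a13* (90514435 to 90524581), *S100a4* (90603770 to 90606045) and *S100a6* (90612894 to 90614414) belong to a dense cluster of S100 genes. *S100a11* (93520496 to 93526288) and *S100a10* (93555117 to 93564645) lie 28828 bases apart, beyond a gap of 2824804 bases from the end of *S100a9*. The other members are on other chromosomes. *Lgals1* is on chromosome 15 (78926725 to 78930465), *Lgals3* on chromosome 14 (47373860 to 47386167), *Anxa1* on chromosome 19 (20373434 to 20390671), *Anxa2* on chromosome 9 (69453683 to 69491785) and *Vim* on chromosome 2 (13574311 to 13582826).

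To show the sequences next to the start sites of these genes, the 250 bases upstream of each RefSeq start were searched on both strands for 4 motifs (RefSeq, GRCm38.p6, the assembly of mm10). Promoters were found for 8 of the 10 members, all but *S100a10* and *Lgals1*. The AP-1 motif TGANTCA was in 2 of these 8 promoters and in 6.75% of all 32851 promoters. The GC box bound by SP and KLF factors, GGGCGG, was in 3 of 8 and in 32.7% of all. The TATA box, TATAAA, was in 4 of 8 and in 12.4% of all. The STAT motif TTCNNNGAA was in 0 of 8 and in 7.02% of all, which says only that these letters are not in these windows. None of the matches overlapped another.

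The promoters with AP-1 letters are those of *S100a11*, with matches starting at -136 and -38, and of *Anxa2*, with a match starting at -95. They are shown 5′ to 3′ and end at the base before the start site, with motif matches in capitals (*S100a11*, chr3:93520246-93520495, plus strand; *Anxa2*, chr9:69453433-69453682, plus strand).
S100a11: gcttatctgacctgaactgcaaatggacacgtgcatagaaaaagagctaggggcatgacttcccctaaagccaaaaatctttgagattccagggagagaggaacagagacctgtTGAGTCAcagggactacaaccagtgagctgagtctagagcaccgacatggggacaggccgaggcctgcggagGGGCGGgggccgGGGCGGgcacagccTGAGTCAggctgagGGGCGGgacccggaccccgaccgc
Anxa2: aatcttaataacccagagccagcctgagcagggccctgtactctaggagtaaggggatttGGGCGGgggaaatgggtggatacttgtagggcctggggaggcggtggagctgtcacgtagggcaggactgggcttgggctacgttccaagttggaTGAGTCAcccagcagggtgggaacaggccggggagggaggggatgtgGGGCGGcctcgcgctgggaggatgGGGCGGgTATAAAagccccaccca

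The promoters of *S100a4*, *Lgals3* and *Anxa1* are shown because these 3 genes were higher in Th1 than in Th17 cells. Those of *S100a4* (chr3:90603520-90603769, plus strand) and *Anxa1* (chr19:20390672-20390921, minus strand) hold a TATA box at -31 and -32. That of *Lgals3* (chr14:47373610-47373859, plus strand) holds a GC box on the opposite strand, ending at -2.
S100a4: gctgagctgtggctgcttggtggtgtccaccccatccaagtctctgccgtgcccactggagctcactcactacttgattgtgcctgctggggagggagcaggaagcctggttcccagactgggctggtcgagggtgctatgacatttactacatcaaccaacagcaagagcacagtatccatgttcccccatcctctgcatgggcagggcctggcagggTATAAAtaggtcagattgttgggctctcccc
Lgals3: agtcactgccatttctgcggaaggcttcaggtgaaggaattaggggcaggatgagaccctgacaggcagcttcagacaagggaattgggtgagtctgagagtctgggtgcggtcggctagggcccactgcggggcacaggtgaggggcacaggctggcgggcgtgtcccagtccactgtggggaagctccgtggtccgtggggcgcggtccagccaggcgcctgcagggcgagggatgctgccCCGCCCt
Anxa1: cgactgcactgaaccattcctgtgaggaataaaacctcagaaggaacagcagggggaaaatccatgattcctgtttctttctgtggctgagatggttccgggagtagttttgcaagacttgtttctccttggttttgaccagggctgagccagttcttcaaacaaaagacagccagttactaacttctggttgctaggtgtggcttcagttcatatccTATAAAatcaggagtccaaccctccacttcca
A match of letters is a description of the sequence and not a bound site.

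The expression values are FPKM, the fragments of a gene scaled by transcript length and by the number of mapped fragments, so levels of different genes can be compared per length. The depth implied by the deposited confidence intervals was 14463466 to 21058286 fragments per library, and Pearson's r between the 2 libraries of a group, across genes, was 0.953 to 0.960. *Ifng* and *Tbx21*, *Il4*, *Il13* and *Gata3*, and *Il17a* and *Il17f* were high in the Th1, Th2 and Th17 libraries, respectively. Of the markers of CD4 T cells, *Cd3e*, *Cd3g*, *Cd4* and *Lck* were measured and summed to 1717 to 1736 FPKM in the naïve libraries and 937 to 1328 in the effector libraries. The CD8 T cell genes *Cd8a* and *Cd8b1* summed to 54.5 and 93.4 FPKM in the naïve libraries and 8.94 to 12.95 in the effector libraries, nearly all of it *Cd8b1*. Markers of B cells summed to 2.15 to 11.4 FPKM over the 8 libraries. Those of dendritic cells summed to 0.728 to 0.815 in naïve and 1.22 to 3.90 in effector libraries, and those of stromal cells to 0.0896 to 0.132 and 0.539 to 1.15. Their part in the results was not tested. The myeloid genes *Mpo* (2.46 to 4.89 FPKM) and *Elane* (2.59 to 3.71 FPKM) were found in the replicate 1 library of each effector subset, with *Mpo* at 0 to 0.106 FPKM and *Elane* at 0 in their replicate 2 libraries. In naïve cells *Mpo* was at 0.373 FPKM (20 fragments) in replicate 1 and 0.0187 (1 fragment) in replicate 2. Counts of members called are therefore also given without these 3 effector libraries. Groups were compared with limma on log2(FPKM + 1), with all 8 libraries in a single fit over the 11198 genes whose FPKM averaged at least 1. On this scale, changes of genes with low FPKM are understated. Benjamini-Hochberg adjustment covered all of these genes, and a gene was said to rise or fall where the adjusted p was under 0.05. The labels do not say whether the 2 libraries of a group came from separate mice or cultures, so the p-values measure the spread between these libraries only. The samples are bulk RNA, in which fewer cells of a type and less RNA per cell cannot be told apart.

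All 10 genes were higher in Th1 and in Th17 cells than in naïve cells, and 8 of 10 were higher in Th2 cells. In Th1 cells the share of the library's summed FPKM held by the 10 genes was 1.65% ± 0.153 (SD, n = 2), against 0.133% ± 0.00879 (SD, n = 2) in naïve cells. The share was 0.832% ± 0.00934 (SD, n = 2) in Th2 cells and 1.65% ± 0.137 (SD, n = 2) in Th17 cells. Every effector library lay above both naïve libraries, and both Th2 libraries lay between the naïve libraries and those of Th1 and Th17. *Vim* gave the largest part of the share in every effector library.

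**Figure D1:**
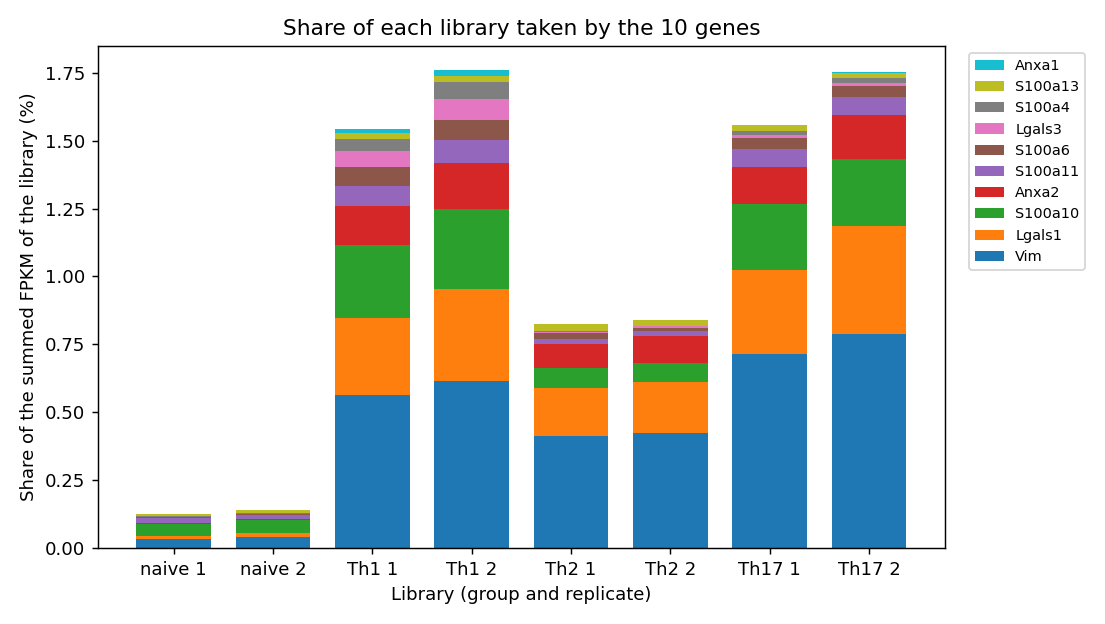
Share of the summed FPKM (%, vertical axis) held by each of the 10 genes in each of the 8 libraries (horizontal axis, group and replicate), stacked by gene. The stacks reach 0.127% and 0.139% in naïve cells, 1.54% and 1.76% in Th1, 1.56% and 1.75% in Th17, and 0.825% and 0.839% in Th2.

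Against naïve cells, 10 of 10 members rose in Th1, where 33.8% of all genes tested rose. In Th2, 8 of 10 rose, against 31.8% of all genes, and in Th17 10 of 10 rose, against 37.5%. The median difference of the members on the log2(FPKM + 1) scale was 4.40 in Th1, 3.49 in Th17 and 2.27 in Th2, and the medians of all genes tested were -0.01, 0.08 and -0.11. These 3 comparisons share the naïve libraries and are not independent of each other. The members were chosen with earlier results of these data known, so the counts and medians only describe the set. Without the replicate 1 effector libraries, limma called 9 members higher in Th1, 6 in Th2 and 9 in Th17, against 22.2%, 22.3% and 25.1% of all genes. The smallest number of fragments behind a value was 13, for *Anxa1* in a naïve library, and *Anxa1* entered the test only through the libraries in which it was higher.

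**Figure D2:**
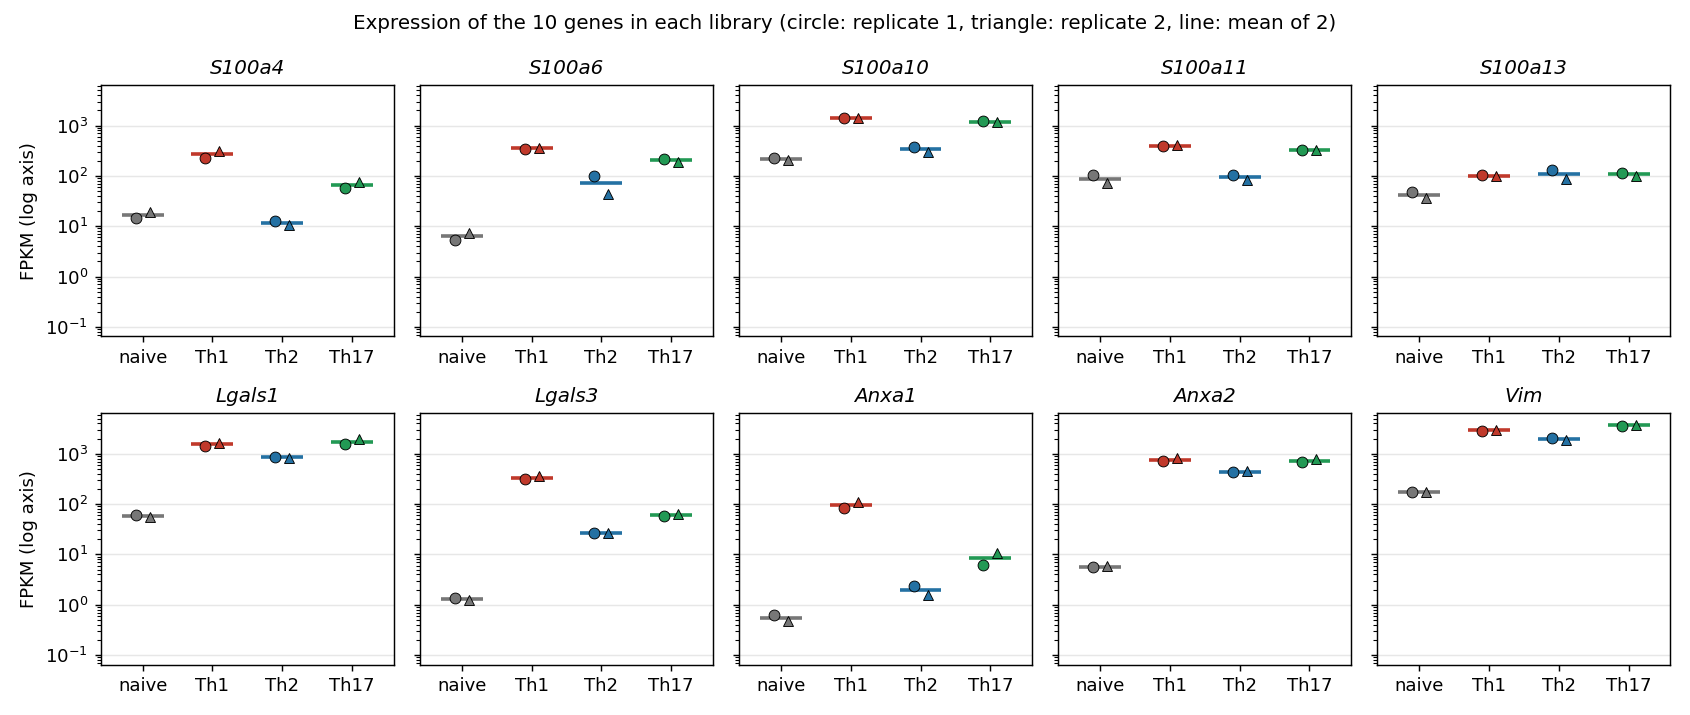
FPKM of each of the 10 genes (vertical axes, log scale) in the 4 groups (horizontal axes), with a circle for replicate 1, a triangle for replicate 2 and a line at the mean of 2 libraries. For 8 of the 10 genes all 6 effector libraries lie above both naïve libraries, the exceptions being *S100a4* and *S100a11*, and this pattern was found in 30.5% of all genes tested.

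Among the S100 genes, *S100a4* was high in Th1, intermediate in Th17 and low in both naïve and Th2 cells. S100A4 is known to bind non-muscle myosin and to take part in cell motility. Its level was 227 and 309 FPKM in Th1, 58.7 and 75.3 in Th17, 12.7 and 10.7 in Th2, and 14.3 and 19.3 in naïve cells. The Th1 and Th17 libraries overlapped neither each other nor the rest, and both Th2 libraries lay below both naïve libraries. The log2 difference from naïve cells was 3.92 ± 0.22 (SE; limma, Benjamini-Hochberg adjusted p = 6.67e-06) in Th1. In Th17 it was 1.94 ± 0.22 (SE; limma adjusted p = 0.000194). In Th2 the difference of -0.48 ± 0.22 (SE; limma adjusted p = 0.0846) did not pass the test, and passed it with the replicate number as a block (limma adjusted p = 0.0433). About 47.4% of the 50-base words of its transcripts also occur in the overlapping gene *Gm42674* on the same strand (GENCODE), so its level is uncertain where the counting split those reads.

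*S100a6*, which encodes calcyclin, had the largest rise over naïve cells among the S100 genes in Th1. Its level was 5.43 and 7.24 FPKM in naïve cells, 349.6 and 352 in Th1, 218 and 189 in Th17, and 98.9 and 44.3 in Th2. The 4 groups did not overlap, and the 2 Th2 libraries differed from each other more than those of any other group. The mean was 55.3 times the naïve mean in Th1, 11.3 times in Th2 and 32.1 times in Th17, where the naïve values rest on 64 and 85 fragments. The log2 difference from naïve cells was 5.59 ± 0.34 in Th1 and 3.21 ± 0.34 in Th2 (SE; limma adjusted p = 1.06e-05 and 0.000139).

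*S100a10*, the partner of annexin A2, was already at 226 and 210.2 FPKM in naïve cells, the highest level of the 10 genes there. It reached 1381 and 1408 FPKM in Th1, 1211 and 1190.5 in Th17, and 379.8 and 296 in Th2. The Th2 libraries were above the naïve ones and far below those of Th1 and Th17. The mean was 6.40 times the naïve mean in Th1, 5.51 times in Th17 and 1.55 times in Th2, and the Th2 difference of 0.62 ± 0.14 (SE) passed the test (limma adjusted p = 0.00650).

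*S100a11*, its neighbour on chromosome 3, rose in Th1 and Th17 and did not pass the test in Th2. The naïve libraries had 103 and 70.8 FPKM, those of Th1 390.2 and 412, of Th17 327 and 319.9, and of Th2 103 and 83.1. The Th2 libraries overlapped the naïve libraries. The log2 difference was 2.22 ± 0.19 in Th1 and 1.91 ± 0.19 in Th17 (SE; limma adjusted p = 5.97e-05 and 0.000114), and 0.11 ± 0.19 in Th2 (limma adjusted p = 0.625, 95% interval -0.34 to 0.56). About 41.1% of its 50-base words occur in transcripts of other genes, all of them in those of *Gm12854*, so the level of *S100a11* is also uncertain.

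*S100a13*, whose product takes part in the unconventional release of proteins without a signal peptide, was the only member that did not separate the effector subsets in any of the 3 comparisons between them. It had 48.4 and 35.7 FPKM in naïve cells, 104 and 98.6 in Th1, 116 and 98.5 in Th17, and 131 and 86.4 in Th2. The effector groups overlapped, and all effector libraries were above the naïve ones. It rose in each subset, with mean ratios to naïve cells of 2.58 in Th2, 2.55 in Th17 and 2.41 in Th1 (limma adjusted p = 0.00147, 0.00153 and 0.00209). The 95% intervals of the differences between subsets were -0.60 to 0.47 for Th1 minus Th2, -0.52 to 0.54 for Th17 minus Th2, and -0.61 to 0.46 for Th1 minus Th17.

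*Lgals1* and *Lgals3*, the galectin genes of the set, rose in every subset, from different starting levels and in different orders. Galectin-1 and galectin-3 are both known to bind glycans of T cell surface proteins and to affect T cell survival. *Lgals1* had 59.5 and 55.6 FPKM in naïve cells, 1460.4 and 1639 in Th1, 1549.7 and 1925 in Th17, and 875 and 837 in Th2. The Th1 and Th17 libraries overlapped, and both groups lay above the Th2 libraries. In rank of FPKM within the library, *Lgals1* moved from places 1072 and 1155 in naïve cells to between 20 and 80 in the effector libraries. The log2 difference from naïve cells was 4.88 ± 0.14 in Th17, 4.73 ± 0.14 in Th1 and 3.87 ± 0.14 in Th2 (SE; limma adjusted p = 3.77e-07, 4.88e-07 and 8.81e-07).

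*Lgals3* started from 1.34 and 1.23 FPKM in naïve cells, which rest on about 34.8 and 32.1 fragments. It reached 309 and 360.2 FPKM in Th1, 57.4 and 62.6 in Th17, and 26.9 and 27.3 in Th2. No groups overlapped, and each step of the order Th1, Th17, Th2, naïve passed the test. The Th1 mean was 260.4 times the naïve mean, the largest ratio of any member, and the log2 difference was 7.19 ± 0.10 (SE; limma adjusted p = 9.32e-08). The ratio was 46.7 in Th17 and 21.1 in Th2.

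Of the annexin genes, *Anxa1* was high in Th1 and *Anxa2* in all 3 subsets. *Anxa1* encodes annexin A1, a glucocorticoid-induced protein that acts through formyl peptide receptors, whose genes *Fpr1* and *Fpr2* were at 0 to 1.16 FPKM in all libraries. *Anxa1* was at 0.623 and 0.479 FPKM in naïve cells, 83.8 and 113 in Th1, 6.30 and 10.6 in Th17, and 2.39 and 1.56 in Th2. No groups overlapped, and only the Th1 libraries were at a high level. The log2 difference from naïve cells was 5.99 ± 0.25 in Th1 and 2.57 ± 0.25 in Th17 (SE; limma adjusted p = 1.99e-06 and 0.000108). That of Th2, 0.93 ± 0.25 (SE; limma adjusted p = 0.0141), was lost without naïve replicate 2 (adjusted p = 0.0669) or Th2 replicate 1 (adjusted p = 0.0923), and rests on 13 and 17 fragments in the naïve libraries.

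*Anxa2*, by contrast, was high in every effector library. It had 5.60 and 5.89 FPKM in naïve cells, 723 and 811 in Th1, 679 and 783 in Th17, and 441 and 445 in Th2. The Th1 and Th17 libraries overlapped, and the Th2 libraries were below them and far above the naïve ones. The mean was 133.6 times the naïve mean in Th1, 77.1 times in Th2 and 127.3 times in Th17. In Th2 this gene had the largest difference of the 10, 6.04 ± 0.11 on the log2 scale (SE; limma adjusted p = 1.18e-07).

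*Vim* had the highest level of the set in every effector library. It rose from 171 and 175 FPKM in naïve cells to 2894 and 2945 in Th1, 3586 and 3798 in Th17, and 2088 and 1867 in Th2. The groups did not overlap, and the Th17 libraries were the highest. By rank within the library it moved from places 312 and 315 in naïve cells to between 6 and 19 in effector cells. The log2 difference from naïve cells was 4.41 ± 0.12 in Th17, 4.07 ± 0.12 in Th1 and 3.51 ± 0.12 in Th2 (SE; limma adjusted p = 3.37e-07, 4.97e-07 and 7.39e-07).

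Since genes of this set encode partners or alternatives of one another, their FPKM ratios were taken within each library. The ratio of *S100a10* to *Anxa2* was 40.3 and 35.7 in naïve cells, 1.91 and 1.74 in Th1, 1.78 and 1.52 in Th17, and 0.862 and 0.665 in Th2. Transcripts of the 2 partners were thus within a factor of 2 of each other in the effector libraries, with *S100a10* in large excess in the naïve libraries. The ratio of *Lgals1* to *Lgals3* was 44.5 and 45.1 in naïve cells, 32.6 and 30.7 in Th2, 27.0 and 30.8 in Th17, and 4.72 and 4.55 in Th1. The Th1 libraries were apart from the other 6.

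The ratio of *Anxa2* to *Anxa1* was 8.98 and 12.3 in naïve cells and 8.63 and 7.21 in Th1. It was 108 and 74.1 in Th17 and 184 and 285 in Th2. The ratio of *S100a4* to *S100a6*, which lie close together on chromosome 3, was above 1 only in naïve cells, at 2.62 and 2.67. It was 0.648 and 0.879 in Th1, 0.270 and 0.398 in Th17, and 0.128 and 0.241 in Th2. These ratios are descriptions, given with no test.

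**Figure D3:**
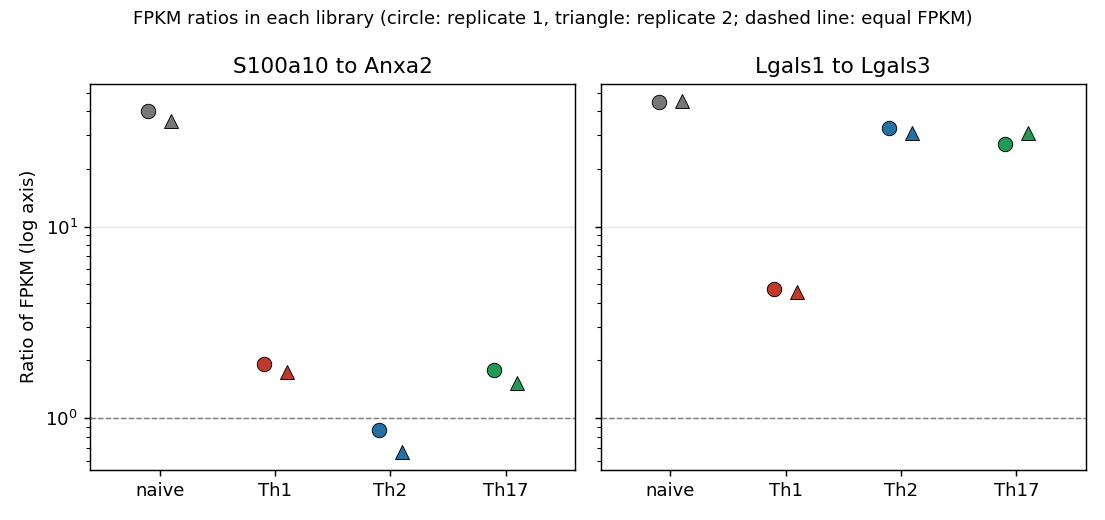
Ratios of FPKM between pairs of the genes (vertical axes, log scale) in the 4 groups (horizontal axes), with a circle for replicate 1, a triangle for replicate 2 and a dashed line at equal FPKM. The *S100a10* to *Anxa2* ratio is 35.7 or more in the naïve libraries and at most 1.91 in the effector libraries.

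Comparisons between the effector subsets asked which of these genes mark 1 helper subset. Th2 cells had the lowest effector level of 9 of the 10 genes, and their 2 libraries lay below all 4 Th1 and Th17 libraries for those 9, a pattern found in 37.1% of all genes tested. In Th1 against Th2, 9 of 10 members were higher in Th1, against 27.4% of all genes tested. The median difference of the members was 2.08, against 0.11 over all genes. In Th17 against Th2, 9 of 10 were higher in Th17, against 31.7% of all genes, with medians of 1.36 and 0.18. At least 1 of the 3 comparisons between subsets was passed by 9 of 10 members and by 59.9% of all genes. With each library scaled by the median ratio instead, the same counts of 9 and 9 were found. Of all genes called under that scaling, 50.01% were higher in Th1 than in Th2 and 51.0% higher in Th17 than in Th2. Without it these were 61.8% and 72.6%, so the shares above do not apply to the scaled counts. These comparisons share the Th2 libraries, and here too the counts only describe a set chosen with earlier results known.

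*Anxa1* and *S100a4* showed the largest differences between Th1 and Th2. The Th1 mean was 49.7 times the Th2 mean for *Anxa1* (log2 difference 5.06 ± 0.25, SE; limma adjusted p = 1.63e-05). It was 22.9 times for *S100a4* (4.39 ± 0.22, SE; limma adjusted p = 1.48e-05) and 12.4 times for *Lgals3* (3.58 ± 0.10, SE; limma adjusted p = 2.62e-06). The Th2 values of *Anxa1* rest on 87 and 56 fragments and those of *S100a4* on 114 and 95. *S100a6*, *S100a10* and *S100a11* were 4.13 to 4.90 times higher in Th1. *Lgals1*, *Anxa2* and *Vim* differed least among those that passed, by 1.81, 1.73 and 1.48 times. The *Vim* difference was lost without either Th1 library (limma adjusted p = 0.0545 and 0.0754) or without Th2 replicate 2 (limma adjusted p = 0.0653).

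In Th17 against Th2, *S100a4* had the largest difference, with means 5.73 times apart (2.42 ± 0.22, SE; limma adjusted p = 0.000305). *Anxa1* was 4.27 times higher, *S100a10* 3.55 times, *S100a11* 3.48 times and *S100a6* 2.84 times. The *S100a6* call was lost without Th17 replicate 1 (limma adjusted p = 0.0540). *Lgals3*, *Lgals1*, *Vim* and *Anxa2* were 2.22, 2.03, 1.87 and 1.65 times higher in Th17.

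In Th1 against Th17, 3 of 10 members passed, all higher in Th1, against 9.17% of all genes tested. They were *Anxa1* (11.6 times; 3.42 ± 0.25, SE; limma adjusted p = 0.000155), *Lgals3* (5.58 times; 2.46 ± 0.10, SE; limma adjusted p = 1.81e-05) and *S100a4* (4.0 times; 1.98 ± 0.22, SE; limma adjusted p = 0.000831). For 6 genes, these 3 with *S100a6*, *S100a10* and *S100a11*, both Th1 libraries lay above the other 6 libraries, against 9.85% of all genes. *S100a6* had a 95% interval of -0.02 to 1.59 and *Vim* one of -0.63 to -0.04, and neither passed after adjustment (limma adjusted p = 0.146 and 0.0939). Intervals that include 0 were also found for *S100a10* (-0.12 to 0.55), *S100a11* (-0.14 to 0.76), *Lgals1* (-0.50 to 0.18) and *Anxa2* (-0.20 to 0.34).

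**Figure D4:**
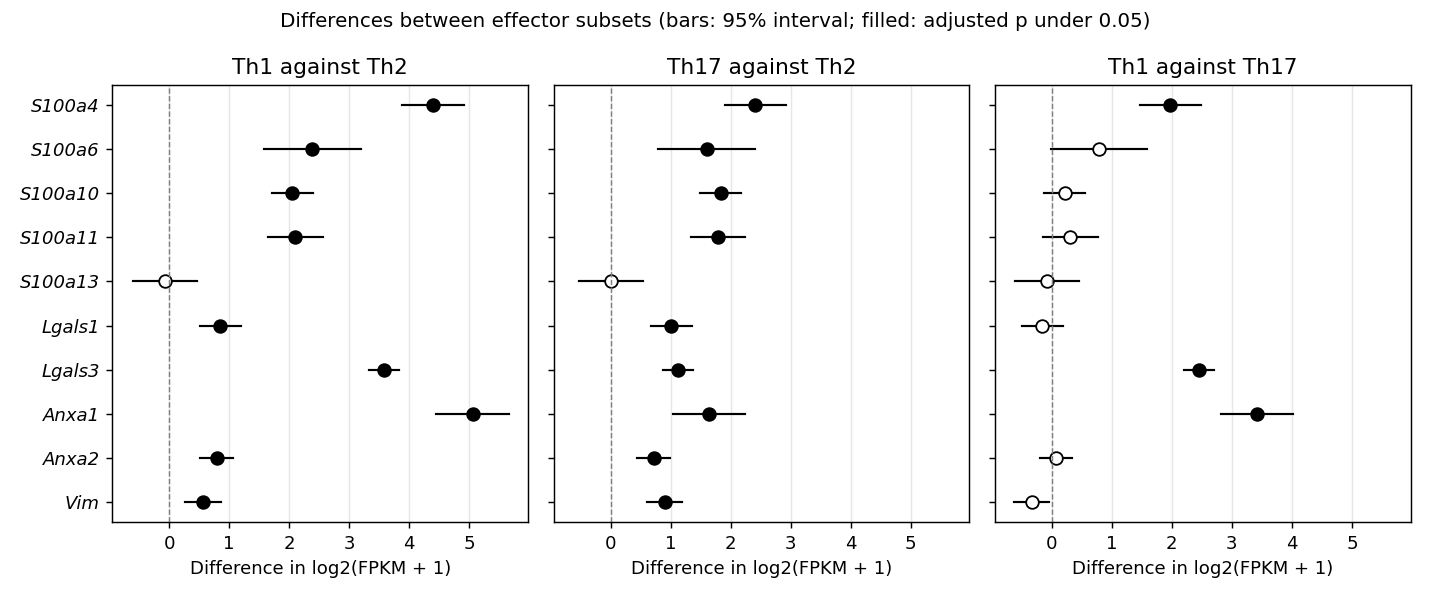
Differences in log2(FPKM + 1) between effector subsets (horizontal axes) for the 10 genes (vertical axis), with bars for the 95% interval and filled points for a limma adjusted p under 0.05. Filled points number 9 for Th1 against Th2, 9 for Th17 against Th2 and 3 for Th1 against Th17, and all lie to the right of 0.

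Without the replicate 1 effector libraries, each subset had a single library, assumed to vary like the 2 naïve ones. Limma then called 3 members in Th1 against Th2, 0 in Th17 against Th2 and 2 in Th1 against Th17, of 682, 342 and 308 genes called among the 11198 tested. The members called were higher in the first-named subset, as were 2.96%, 1.91% and 0.911% of all genes. The median differences of the members in this setting were 2.27, 1.57 and 0.30, and those of all genes are not given for it. With all libraries they were 2.08, 1.36 and 0.26. Against naïve cells the medians of the members were 4.47 in Th1, 3.68 in Th17 and 1.84 in Th2 in this setting. With all libraries these were 4.40, 3.49 and 2.27, so that of Th2 was smaller in this setting. The 9 myeloid markers *Lyz2*, *Csf1r*, *Cd14*, *Itgam*, *Emr1*, *Mpo*, *Elane*, *S100a8* and *S100a9* summed to 12.4 to 14 FPKM in naïve cells, 8.91 to 15.6 in Th1, 20.8 to 34.3 in Th2 and 17.7 to 24.3 in Th17. The sum reached its highest value in Th2, with *Lyz2* at a mean of 15.8 FPKM and *Emr1* at 5.26 there. The markers did not move together, since *Cd14* and *Mpo* averaged lowest of the effector subsets in Th2 (0.548 and 1.25 FPKM). *S100a8*, at 0 to 0.663 FPKM, and *S100a9*, at 0 to 0.309 FPKM, were near 0 in all libraries. Their part in the results was not tested.

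Other genes of the same families moved in both directions. Of 29 listed, 15 had a mean FPKM of at least 1 and were tested, and *S100a3*, *Lgals7*, *1110067D22Rik*, *Anxa4* and *Anxa9* entered only through the effector libraries, since they were under 1 FPKM in both naïve libraries. In Th1 8 rose and 3 fell against naïve cells, in Th2 7 rose and 4 fell, and in Th17 8 rose and 3 fell. Of all genes tested, 33.5% fell in Th1, 38.7% in Th2 and 29.8% in Th17. The median difference was 0.73, 0.55 and 0.33. Their summed level stayed at 430.2 to 592 FPKM in all 8 libraries. Between Th1 and Th2, 3 were higher in Th1 and 6 in Th2, against 27.4% and 16.9% of all genes tested. Between Th17 and Th2, 4 were higher in each, against 31.7% of all genes higher in Th17 and 12.0% in Th2. Between Th1 and Th17, 2 were higher in each, against 9.17% of all genes higher in Th1 and 16% in Th17.

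*S100a1* and *Lgals7* had their highest level in Th2. *S100a1*, which lies 104 bases from *S100a13* by coordinate, had 2.34 and 1.81 FPKM in naïve cells, 20.1 and 23.6 in Th1, 24.2 and 24.6 in Th17, and 138 and 112 in Th2. Its Th2 libraries lay apart from all others, and Th1 minus Th2 was -2.46 (limma adjusted p = 3.21e-05), whereas its neighbour *S100a13* did not differ by this test. *Lgals7*, which encodes galectin-7, was at 0.446 and 0.223 FPKM in naïve cells, 55.3 and 51.4 in Th2, and 12.7 to 18.3 in Th1 and Th17. *Anxa4* had 0.607 and 0.122 FPKM in naïve cells and 10.8 to 21.7 in the effector libraries.

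*Anxa6*, which encodes a membrane-associated annexin with a doubled core, was highest in Th1. It had 279 and 348 FPKM in Th1, 177 and 199 in naïve cells, 169.6 and 213 in Th17, and 72.0 and 68.7 in Th2. It fell in Th2 against naïve cells by 1.40 on the log2 scale (limma adjusted p = 0.000203). *Lgals9*, which encodes galectin-9, moved opposite to *Lgals1* and *Lgals3*, from 96.2 and 107 FPKM in naïve cells to between 31.2 and 39.0 in the effector libraries (limma adjusted p = 1.31e-05, 2.36e-05 and 1.90e-05). *Lgals8* fell in all 3 subsets as well, most in Th17, where it was at 6.26 and 5.63 FPKM against 23.5 and 23.2 in naïve cells. *Lgals4* and *Lgals6* are near-identical copies and their levels are uncertain. In the cluster itself, *S100a5*, which lies between *S100a4* and *S100a6*, stayed at 0 to 0.898 FPKM.

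**Figure D5:**
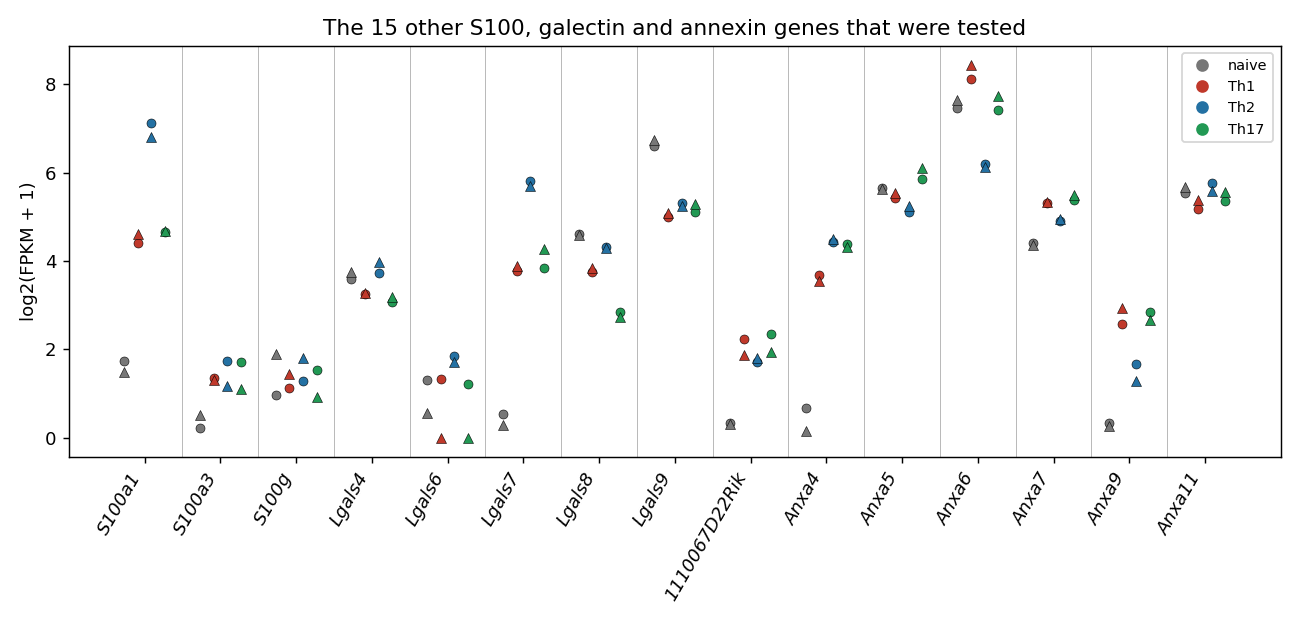
Level of the 15 other S100, galectin and annexin genes that were tested (horizontal axis) as log2(FPKM + 1) (vertical axis), with points for single libraries coloured by group. *S100a1* and *Lgals7* are highest in the Th2 libraries, and *Lgals9* is highest in the naïve libraries.

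A further list of 24 genes held filament and lamina genes, known partners of annexins and S100 proteins, galectin counter-receptors and glycan enzymes. Not all of them encode direct partners of the members' products. Of these 24, called partner genes below, 17 were tested. *Gcnt1* and *Havcr2* were under 1 FPKM in both naïve libraries and *Lag3* averaged under 1 there, so that they entered only through libraries in which they were higher, as *Cd7* and *Mgat5*, under 1 FPKM in both Th2 libraries, did through others. Against naïve cells 7 rose and 6 fell in Th1, where 33.8% of all genes rose and 33.5% fell. In Th2 6 rose and 8 fell (31.8% and 38.7% of all genes), and in Th17 6 rose and 5 fell (37.5% and 29.8%). Between Th1 and Th2, 11 were higher in Th1 and 1 in Th2, against 27.4% and 16.9% of all genes, with a median difference of 0.74 against 0.11 over all genes. In Th17 against Th2 9 were higher and 1 lower (31.7% and 12.0% of all genes; medians of 0.68 and 0.18), and in Th1 against Th17 4 were higher and 2 lower (9.17% and 16%; medians of 0.18 and -0.08). *Ahnak*, which encodes a large scaffold bound by S100A10 and annexin A2, had 3.22 and 4.78 FPKM in naïve cells, 31.8 and 39.8 in Th1, 31.5 and 32.6 in Th17, and 14.8 and 17.5 in Th2. Its order, with Th2 between naïve cells and the other subsets, was that of *S100a10* and *Anxa2*, and Th1 minus Th2 was 1.10 (limma adjusted p = 0.00306). *Myh9*, the heavy chain of non-muscle myosin bound by S100A4, was 136 and 214 FPKM in naïve cells and 48.7 to 106 in effector cells.

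Among filament genes, *Lmna*, which encodes A-type lamins, was high in Th17 only, at 28.1 and 29.7 FPKM against 1.12 to 3.34 in the other libraries. *Lmnb1* rose in all 3 subsets. The filament genes *Des*, *Nes*, *Gfap*, *Synm* and *Prph* were at 0 to 1.39 FPKM. *Plec*, which encodes the linker plectin, had 24.0 and 39.5 FPKM in naïve cells and 8.46 and 7.98 in Th2.

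Genes of galectin ligands and of the enzymes that shape their glycans changed in both directions. *Gcnt1*, whose enzyme starts the core 2 branch of O-glycans, was at 0.0399 and 0.221 FPKM in naïve cells, 26.6 and 31.2 in Th1, 5.26 and 7.21 in Th17, and 2.12 and 2.20 in Th2. Its order was that of *Lgals3*, and Th1 minus Th17 was 2.06 (limma adjusted p = 0.000191). *Mgat5*, whose enzyme branches N-glycans, fell in the 3 subsets, from 2.95 and 7.17 FPKM to between 0.339 and 2.29. *Cd7*, a galectin-1 counter-receptor, fell from 50.6 and 55.6 FPKM to between 0.313 and 3.72. *Ptprc*, which encodes CD45, fell from 303 and 305 FPKM to between 107 and 195. *Havcr2*, which encodes TIM-3, a proposed galectin-9 receptor, was found in Th1 at 3.20 and 4.56 FPKM and elsewhere at 0.0697 to 0.181.

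To find genes of like pattern, the distance of each gene from each member was taken over the 8 libraries on the log2(FPKM + 1) scale, after centring each gene. This is a description over 8 libraries that share 4 groups. Within the set the closest pairs were *S100a10* with *S100a11*, at a distance of 0.70, and *Lgals1* with *Vim*, at 0.71. *S100a4* was nearest to *Il18rap* (0.62), a chain of the IL-18 receptor, which had 24.0 and 36.4 FPKM in Th1 and 3.73 and 5.33 in Th17. *Anxa1* was nearest to *Bst1* (1.07), at 44.9 and 42.5 FPKM in Th1, with *Klrk1*, which encodes NKG2D, at 1.55. *Anxa2* was nearest to *Bhlhe40* (0.76), a transcription factor gene, and *Vim* to *Gabarapl1* (0.36), an autophagy gene. *Lgals1* was nearest to *Csda* (0.44) and *Uhrf1* (0.51), and *S100a6* to *Spp1* (1.33), which encodes osteopontin. *S100a13* was nearest to the noncoding RNA *Neat1* (0.37), and *S100a10* to *4930539E08Rik* (0.34). *S100a11* was nearest to *Klrc3* (0.52), listed at 0 in the naïve and Th2 libraries and at 3.06 and 4.20 FPKM in Th1.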

How the data were processed

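RNA-seq libraries of naïve CD4 T cells and 3 effector Th subsets, 2 per group, were re-analysed. Groups and replicate numbers were taken from the sample labels. Per the submitters' processing notes, the authors used Bowtie (0.12.8), TopHat (1.3.2) and Cufflinks (2.0.2) on mm10. The deposited values are FPKM per gene with a confidence interval. The gene annotation is not given in the sources used here. The methods name a library kit without strand and the labels a stranded one, so reads of overlapping genes on opposite strands may not have been told apart. Of the members, this applies to *Anxa1*, which overlaps *1500015L24Rik*, and to *Anxa2*, which overlaps *Gm16144* (GENCODE).

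Rows of 1 symbol were summed. The 11198 genes whose FPKM averaged at least 1 were tested on log2(FPKM + 1) with limma 3.58.1 (R 4.3.3; lmFit, eBayes with a mean-variance trend; two-sided; Benjamini-Hochberg; threshold 0.05), in a single fit of 4 group means. Tables were made in Python 3.11.15 (pandas 2.3.3, numpy 2.4.6), and the test was checked on simulated data. Fragments per gene were inferred from the width of the 95% intervals, on the assumption that it reflects counting error only. Transcripts were compared by words of 50 bases with those of GENCODE.

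The members and gene lists were chosen with earlier results of these data known. The text names the members, genes of the lists of other family members, partners and cell type markers, and, of the 3 genes nearest to each member over the 8 libraries, those most useful to a reader. The gene nearest to *Lgals3* is not reported here. Replicate differences of same-numbered libraries correlated across genes at 0.138 to 0.294 over the 6 pairs of groups. Pairing by number was therefore used in an alternative fit, the replicate block, and the main fit leaves it out. Alternatives were another pseudocount, filter, scaling, set of groups, variance model or treatment of repeated symbols, a limit to status OK, the replicate block, each library left out, and, chosen after seeing the data, the replicate 1 effector libraries left out.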

Additional observations from a re-analysis of the deposited data

Results flagged for a closer look

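The difference from naïve cells was not the same in all effector subsets for 9 of the 10 genes, against 59.9% of all genes called in at least 1 of the 3 comparisons between subsets. For each, the difference between the subsets, which is that between their differences from the shared naïve libraries, passed the limma test (Benjamini-Hochberg adjusted). The comparison with the largest difference among those called is given. On the log2(FPKM + 1) scale, Th1 minus Th2 was 5.06 for *Anxa1*, 4.39 for *S100a4*, 3.58 for *Lgals3*, 2.39 for *S100a6*, 2.10 for *S100a11*, 2.05 for *S100a10* and 0.789 for *Anxa2*. For *Lgals1* and *Vim*, Th17 minus Th2 was 1.01 and 0.902. Of these 9 differences, limma called 3 without the replicate 1 effector libraries, those of *S100a4*, *Lgals3* and *Anxa1*.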

How the results depend on the processing

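Of 1140 values of single members recomputed under the alternatives, 660 came from settings other than leaving out a single library. Of these, 626 kept their direction and side of the threshold. The 660 include the setting without the replicate 1 effector libraries, which gave most of the values that changed. Of the 480 that left out a single library, 464 kept their direction and side of the threshold. With the replicate block, *S100a4* in Th2 against naïve cells passed (-0.48, limma adjusted p = 0.0433), and the pairing changed no other call of a member. The rise of *Anxa1* in Th2 was lost with no filter (adjusted p = 0.0680) and with quantile normalization (0.0830). *Vim* in Th1 against Th2 was lost with no filter (0.112) or only these groups (0.0554), and *S100a6* in Th17 against Th2 with no filter (0.0519). *S100a6* in Th1 against Th17 passed with only these groups (0.0138) or without either Th2 library (0.0173 and 0.0174), and *Vim* with no mean-variance trend (0.0404). The cause was not tested.

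Some differences that were not called changed sign. *S100a11* in Th2 against naïve cells ranged from -0.1588 to 0.3812 with a library left out (-0.0418 without the replicate 1 effector libraries). *S100a13* in Th1 against Th2 ranged from -0.3617 to 0.2286 (0.1889 without replicate 1). In Th17 against Th2 it ranged from -0.285 to 0.3054, with -0.195 under median scaling and -0.1336 under quantile normalization. In Th1 against Th17 it ranged from -0.1944 to 0.04089 (0.006266 under median scaling, 0.001151 without replicate 1). *Anxa2* in Th1 against Th17 ranged from -0.03251 to 0.1739.

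Without the replicate 1 effector libraries, which leaves fewer samples, genes called fell to 4156, 4973 and 4342 for Th1, Th2 and Th17 against naïve cells, and to 682, 342 and 308 in Th1 against Th2, Th17 against Th2 and Th1 against Th17. In these last 3 comparisons, in that order, members called were 3, 0 and 2, other family genes 2, 1 and 0, and partner genes 2, 1 and 2, with 9 partner genes in Th2 against naïve cells. At a mean FPKM of at least 5, 1793 of the 8379 genes then tested were called in Th1 against Th17, and only these groups gave 2 other family genes. Leaving out a library gave 3106 to 4936 genes in Th1 against Th2 (lowest without Th1 replicate 2), 2738 to 4876 in Th17 against Th2 (lowest without Th17 replicate 2) and 1558 to 2759 in Th1 against Th17 (lowest without Th1 replicate 2), 1 to 4 other family genes in Th1 against Th17, and 5 to 11 partner genes in Th17 against Th2.

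The members' share of the summed FPKM without the 100 highest other genes was 0.2215% (naïve), 2.585% (Th1), 1.364% (Th2) and 2.557% (Th17), and in Th2 it was 0.8417% with the highest row per symbol and 0.8653% with status OK only. Median scaling moved the median difference of all genes from -0.11 to 0.07 in Th2 against naïve cells, from 0.11 to 0.00157 in Th1 against Th2 and from 0.18 to 0.00556 in Th17 against Th2. The share of calls that were higher went from 45.1% to 55.1%, from 61.8% to 50.01% and from 72.6% to 51.0%, and in Th1 against Th17 from 36.5% to 47.3%. Depth limits the naïve values most, where 4 members rest on under 100 fragments in a library.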
